A study of Homo sapiens with 2 samples.

Results

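The genes that copy the genome and the genes that carry out mitosis were compared between the CWR22rv1 line and its Akt1/2 DKO derivative. The set holds 54 genes of the 19607 in the expression table and was matched by gene symbol; all 54 were found. It was split into 27 S-phase genes (E2F factors, cyclin E, origin licensing, helicase, polymerase and nucleotide genes) and 27 G2/M genes (FOXM1 and MYBL2, cyclins A and B, mitotic kinases, kinetochore and spindle genes). CWR22rv1 is an androgen receptor-positive human prostate cancer (CaP) cell line. In the Akt1/2 DKO cells both AKT1 and AKT2, which encode kinases downstream of PI3K, had been targeted in exon 3 with CRISPR/Cas9, after co-transfection with a puromycin resistance plasmid, puromycin selection and isolation of monoclonal cells; the control cells were labelled wild type. Total RNA was sequenced as 1 library per genotype. The labels do not say which clone the Akt1/2 DKO library came from, and a difference between these libraries cannot be told apart from a difference between 1 clone and its parent line.

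Entry into S phase is driven by E2F transcription factors. They are held in check by the pocket proteins (RB1, RBL1 and RBL2) until cyclin D and cyclin E kinases phosphorylate these, after which E2F targets for origin licensing, DNA synthesis and nucleotide supply are transcribed. Genes of G2 and mitosis are transcribed later. Their promoters carry a cell cycle genes homology region (CHR), where the MuvB complex binds, first with pocket proteins as the repressive DREAM complex and later with MYBL2 and FOXM1 as activators, often beside CCAAT boxes bound by NF-Y. Akt kinases act upstream of both waves in many cells, through cyclin D, CDK inhibitors and FOXO factors.

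The promoters show the sequence difference between the classes. Printed are the 120 bases right before the RefSeq start (assembly GRCh38.p14, read 5′ to 3′ on the gene's strand) of the 4 S-phase genes with the largest differences below, E2F2 (chr1:23531234-23531353, minus strand), CDT1 (chr16:88803669-88803788, plus strand), CDC6 (chr17:40287759-40287878, plus strand) and E2F1 (chr20:33686386-33686505, minus strand), and of 4 G2/M genes chosen as examples with their motifs known, CENPF (chr1:214603075-214603194, plus strand), CDC20 (chr1:43358861-43358980, plus strand), PLK1 (chr16:23678769-23678888, plus strand) and MKI67 (chr10:128126424-128126543, minus strand). Capitals mark the E2F motif, the CHR motif and the CCAAT box on either strand.
E2F2: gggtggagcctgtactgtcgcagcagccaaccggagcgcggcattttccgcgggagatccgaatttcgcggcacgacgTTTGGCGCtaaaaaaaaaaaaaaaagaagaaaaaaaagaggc
CDT1: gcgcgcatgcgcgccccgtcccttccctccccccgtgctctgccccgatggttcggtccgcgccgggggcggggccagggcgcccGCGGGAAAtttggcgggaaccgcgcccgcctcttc
CDC6: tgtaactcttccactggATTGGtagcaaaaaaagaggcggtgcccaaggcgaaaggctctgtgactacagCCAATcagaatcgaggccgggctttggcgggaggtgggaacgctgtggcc
E2F1: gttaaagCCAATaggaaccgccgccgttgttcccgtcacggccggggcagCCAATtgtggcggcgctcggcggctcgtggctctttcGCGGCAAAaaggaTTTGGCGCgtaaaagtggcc
CENPF: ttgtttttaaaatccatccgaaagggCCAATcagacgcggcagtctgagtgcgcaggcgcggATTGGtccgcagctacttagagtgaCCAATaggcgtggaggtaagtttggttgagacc
CDC20: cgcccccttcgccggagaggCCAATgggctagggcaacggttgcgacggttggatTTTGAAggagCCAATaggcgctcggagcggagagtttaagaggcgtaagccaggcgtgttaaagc
PLK1: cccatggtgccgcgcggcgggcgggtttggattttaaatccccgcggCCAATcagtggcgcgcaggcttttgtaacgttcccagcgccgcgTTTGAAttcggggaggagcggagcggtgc
MKI67: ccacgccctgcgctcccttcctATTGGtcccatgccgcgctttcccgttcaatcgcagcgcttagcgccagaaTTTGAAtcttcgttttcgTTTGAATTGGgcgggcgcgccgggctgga
E2F2 and CDT1 each hold 1 E2F motif, as searched, in this stretch, beginning 42 and 35 bases before the start. CDT1 also matches the E2F motif without its first T, 23 bases before the start. CDC6 holds CCAAT boxes 103 and 50 bases before the start, and the E2F motif found for it begins at base 7 after it. The letters TTTGGCGGG, not among those searched, stand in lower case in both CDT1 and CDC6. A stretch without capitals is therefore not shown to lack an E2F site. E2F1 holds a pair of E2F motifs, beginning 33 and 20 bases before the start. CDC20 and PLK1 hold a CHR motif 65 and 29 bases before the start, and MKI67 holds CHR motifs 47 and 29 bases before it, of which the nearer shares 1 base with a CCAAT box. CENPF holds 3 CCAAT boxes in this stretch, and its CHR motif begins at base 40 after the start. Not every G2/M promoter has this form: CCNB1, lower in the Akt1/2 DKO library, and PTTG1, higher in it, held no CHR motif in the window.

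Across all members the motifs divided in the same way. Of the 54 members, 44 had a promoter in the RefSeq table, which holds 300 bases per start, 250 before and 50 after it. The E2F motif (TTTGGCGC, TTTCCCGC, TTTGCCGC or TTTCGCGC on either strand) was present in 15 of 23 S-phase members (65.2%) and in 2 of 21 G2/M members (9.52%, CDK1 and NUSAP1), beside 672 of 10358 kept genes with a promoter (6.49%) and 3.31% of all 35116 promoters. The CHR motif (TTTGAA or TTCGAA on either strand, the second being its own reverse complement) was present in 2 S-phase members (8.70%, MCM6 and RRM1) and in 14 G2/M members (66.7%), beside 15.2% of kept genes and 16.4% of all promoters. The CCAAT box, CCAAT on either strand, was common to both classes, with 60.9% of S-phase and 81.0% of G2/M members against 43.3% of kept genes and 34.6% of all promoters. Other replication genes (33 with a promoter) held the E2F motif in 39.4%, and other mitosis genes (50 with a promoter) held the CHR motif in 80%. For the E2F motif without its first T, the shares were 82.6% of S-phase members, 19.0% of G2/M members, 24.9% of kept genes and 13.0% of all promoters. This shorter motif was present in 66.7% of other replication genes and in 40% of other mitosis genes, the latter also above the share of kept genes. A match is a description of these letters and no evidence of binding.

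The libraries held 9970815 reads (control) and 10718634 reads (Akt1/2 DKO). Reads are the authors' estimated counts rounded to whole numbers, fold changes are Akt1/2 DKO over control after TMM scaling (a size ratio of 1.11), and intervals are exact 95% limits of the counts, which cover counting error only. With 1 library per genotype there is no replicate spread and no test, so no p-value is given for any gene. The targeted genes were lower in the Akt1/2 DKO library. AKT1 had 2645 reads in the control and 591 in the Akt1/2 DKO library, 4.96-fold lower (4.54 to 5.43). AKT2 had 2362 and 667 reads, 3.93-fold lower (3.60 to 4.28). All 11 prostate luminal markers had at least 10 reads in both libraries (24906 reads in sum in the control, 40147 in the Akt1/2 DKO library; per gene 184 to 6408 and 29 to 12815). Markers of other cell types were low: of 6 fibroblast genes (142 and 157 reads in sum, per gene up to 74 and 106), COL1A1 alone reached 10 reads in both libraries, with 55 and 106, while COL3A1 had 74 and 9 and LUM 5 and 35. CD68 was the 1 immune gene of 5 with 10 reads in both (52 and 70 reads in sum over the list), and no endothelial gene of 3 reached 10 in either (1 and 2 reads in sum, CDH5 at 0 in both).

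All members were well above the read minimum, and few differed by much. The lowest, CCNE1, had 323 reads in both libraries together, so that every member passed the minimum of 10 and none passed it through 1 library alone. At a limit of 1.5-fold, 3 of 54 members (5.56%) differed: E2F2 and CDT1 were higher and CENPF was lower in the Akt1/2 DKO library. Over all 13318 genes kept 30.9% passed the same limit (15.9% higher, 15% lower), and over the 8746 genes with at least 323 reads 18.1% did (7.96% higher, 10.2% lower). The share of members past the limit was below both. No member reached 2-fold, which 18% of all genes kept and 7.33% of the 8746 genes did. On the FPKM values that the authors deposited 8 members passed 1.5-fold, beside 19.3% of the 8746 genes, among them CDC6, E2F1 and PTTG1, which lay just inside the limit in reads, and MCM5 and CENPE, which lay further inside it. The median absolute log2 fold change was 0.24 in the members and 0.24 in those 8746 genes.

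S-phase members lay mostly above no difference, and the median of G2/M members lay near that of all genes with at least 323 reads. Of the S-phase members, 20 of 27 lay above no difference and 7 below, with a median log2 fold change of 0.21 and a range of -0.27 to 0.94. Of the G2/M members, 10 lay above and 17 below, with a median of -0.06 and a range of -0.88 to 0.57. Among the 8746 genes 4294 lay above, with a median of -0.01. These genes share a floor of 323 reads and were not matched to the members. Their median FPKM in the control was 20.8, against 54.3 in the members, and intervals narrow as reads increase. The G2/M median was lower than the S-phase median by a log2 value of -0.27, a difference that no scaling of the libraries can change. Counting intervals excluded no difference for 16 S-phase members on the higher side and 5 on the lower side, and for 8 and 11 G2/M members, beside 30.5% and 33.4% of the 8746 genes. The S-phase count lay above that share on the higher side and below it on the lower side. The G2/M counts lay nearer to it, slightly below on the higher and above on the lower side. Taken in both directions, intervals excluded no difference for 40 of the 54 members, beside 63.9% of the 8746 genes and 59.2% of all genes kept (29.8% higher, 29.4% lower).

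**Figure D1:**
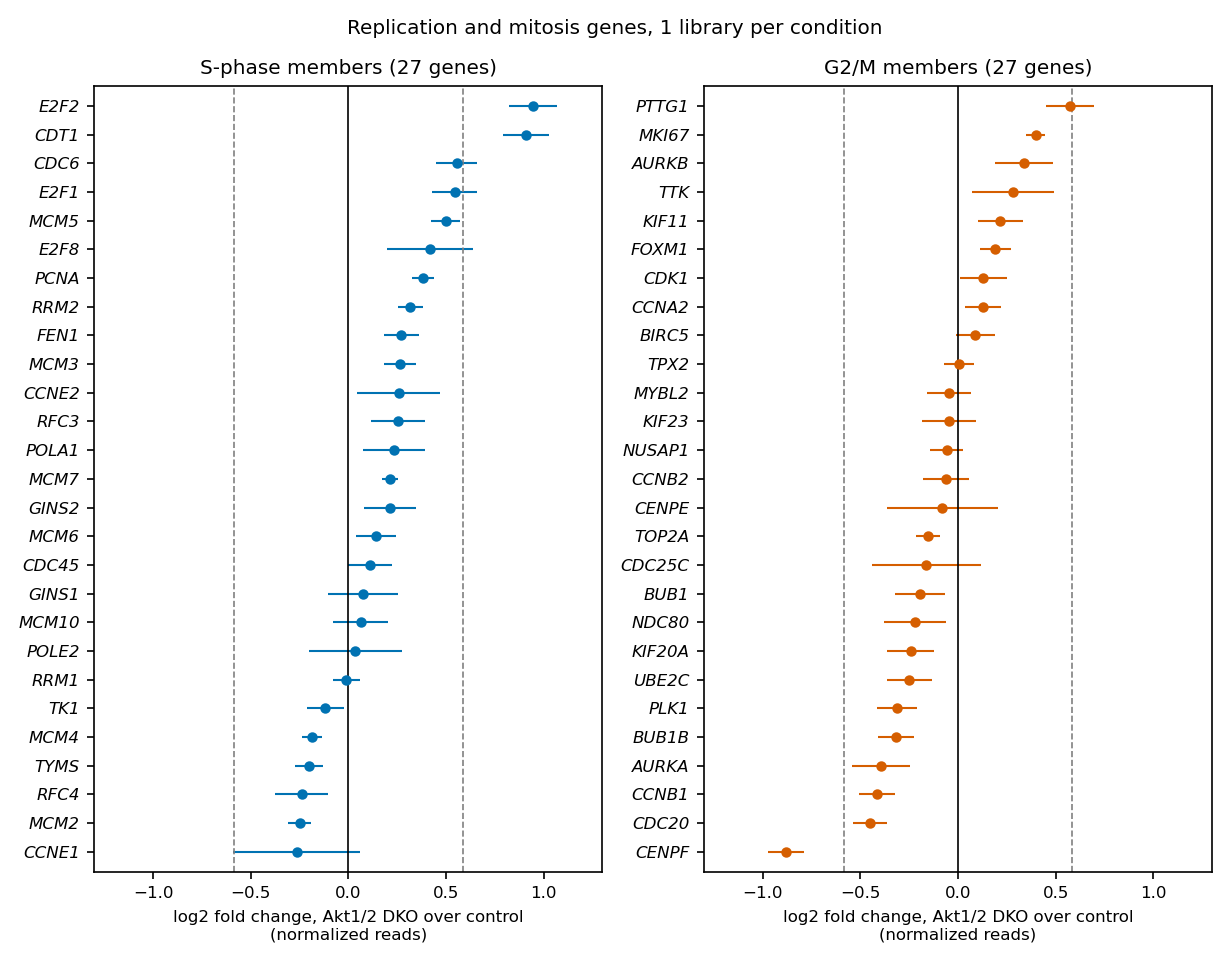
Log2 fold change of each member (horizontal axis, normalized reads, Akt1/2 DKO over control, 1 library each), S-phase members on the left and G2/M members on the right, sorted within a class. Bars are exact 95% counting intervals, the solid line is no difference and the dashed lines are 1.5-fold: E2F2 (0.94), CDT1 (0.91) and CENPF (-0.88) lie outside the dashed lines.

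Within each library, where no scaling enters, G2/M genes took a smaller share of the member reads in Akt1/2 DKO cells. G2/M genes gave 43694 of the 96895 member reads in the control library, 45.1% (44.8 to 45.4, exact 95% interval). In the Akt1/2 DKO library they gave 47216 of 113161, 41.7% (41.4 to 42.0). The intervals, which cover counting error only, did not overlap. S-phase genes gave 53201 reads in the control and 65945 in the Akt1/2 DKO library, of 9970815 and 10718634 in all. Both classes thus had more unscaled reads in the Akt1/2 DKO library, which held more reads in all. The smaller G2/M share does not say whether G2/M RNA was lower, and the median log2 fold change of G2/M members after scaling was -0.06. All members together took 0.972% of the reads of the control library and 1.06% of those of the Akt1/2 DKO library. In bulk RNA, fewer cells in a phase of the cycle and less RNA per cell cannot be told apart.

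The transcription factors of S-phase entry were the highest group, and all 3 were higher in the Akt1/2 DKO library. E2F2, an activator of S-phase genes (chr1:23506430-23531220), had 827 control reads against 1764 Akt1/2 DKO reads, 1.92-fold higher (1.77 to 2.09). E2F1, the best-known activator of the family, had 977 and 1578 reads, a log2 fold change of 0.54 (0.43 to 0.66), just inside the limit. E2F8, an atypical member that represses E2F targets, had 288 and 426 reads (0.42, 0.20 to 0.64). The cyclin E genes, whose products activate CDK2 at the G1/S boundary, did not follow as a pair. CCNE2 had 323 and 428 reads (0.26, 0.05 to 0.47), while CCNE1 had 168 and 155 (-0.27, -0.59 to 0.06), an interval that includes no difference.

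Origin licensing showed the widest spread of the replication steps. CDT1 and CDC6, which load the MCM helicase onto origins, were the largest of its 8 differences. CDT1 (chr16:88803213-88809258) had 857 control reads against 1784 Akt1/2 DKO reads, 1.88-fold higher (1.73 to 2.04). CDC6 had 1197 and 1948 reads, a log2 fold change of 0.55 (0.45 to 0.66). The 6 subunits of the helicase that these factors load, MCM2 to MCM7, did not move as 1 block: 4 were higher and 2 lower, with intervals that excluded no difference in every case and a median log2 fold change of 0.18. MCM5 was the highest of them, with 2372 and 3714 reads (0.50, 0.42 to 0.57), followed by MCM3 with 2117 and 2821 (0.27), MCM7 with 8193 and 10530 (0.21) and MCM6 with 1424 and 1742 (0.14). MCM4 had 6268 and 6103 reads (-0.19), and MCM2, the lowest, 4823 and 4498 (-0.25, -0.31 to -0.19). These subunits act in equal numbers in the assembled helicase.

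MCM2 lies on a chromosome whose genes were mostly lower. MCM2 and the clamp loader subunit RFC4 are the members on chromosome 3, and of the 666 chromosome 3 genes with at least 50 reads 579 lay below no difference, with a median log2 fold change of -0.53. MCM2 (-0.25) and RFC4 (-0.24, 918 and 863 reads) lay above that median. The part of chromosome 3 in their values was not tested. Without them the 52 other members had a median of 0.08, against 0.07 for all 54.

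Genes that turn the loaded helicase into a working replication fork differed little. Of MCM10, CDC45, GINS1 and GINS2, all 4 lay above no difference in reads, between 0.06 and 0.21, although MCM10 was at -0.16 by FPKM, and the interval of GINS2 alone excluded it. GINS2 had 801 reads in the control and 1029 in the Akt1/2 DKO library, and MCM10 had 756 and 875.

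At the fork itself, 5 of 6 polymerase, clamp and flap genes lay above no difference. PCNA, the sliding clamp, was the highest of them with 4244 and 6121 reads (0.38, 0.32 to 0.44). FEN1, which trims flaps of Okazaki fragments, had 1731 and 2316 reads (0.27), RFC3 of the clamp loader 742 and 980 (0.25) and POLA1, the catalytic subunit of polymerase alpha, 582 and 758 (0.23). POLE2 of polymerase epsilon had 280 and 318 reads (0.03, -0.20 to 0.27), and RFC4, the other clamp loader subunit of the set, was the lowest at -0.24 (-0.37 to -0.10). RFC3 and RFC4, which belong to 1 complex, thus had intervals on opposite sides of no difference.

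The 4 nucleotide synthesis genes lay around a median of -0.06, with 1 above no difference and 3 below. RRM2, the subunit of ribonucleotide reductase that is limiting in the cycle, had 3428 reads in the control and 4733 in the Akt1/2 DKO library (0.32, 0.25 to 0.38). Its partner RRM1 had 3287 and 3618 (-0.01, -0.08 to 0.06), a sign that turned with total counts, upper quartile scaling and FPKM. The genes that make thymidine monophosphate lay lower: TK1, the salvage kinase, had 1753 and 1790 reads (-0.12, -0.21 to -0.02) and TYMS, thymidylate synthase, had 3151 and 3040 (-0.20, -0.27 to -0.13).

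Of the G2/M regulators, FOXM1 was higher in the Akt1/2 DKO library and MYBL2 lay near the median of its class. FOXM1, the activator of late mitotic genes, had 2288 reads in the control and 2896 in the Akt1/2 DKO library (0.19, 0.11 to 0.27). MYBL2, which binds MuvB before FOXM1, had 1264 and 1357 (-0.05, -0.16 to 0.07). Cyclins and CDK1 did not share a direction. CDK1, the mitotic kinase subunit, had 1042 and 1263 reads (0.13, 0.01 to 0.25) and CCNA2, needed from S phase on, had 1772 and 2144 (0.13, 0.03 to 0.22). CCNB1, the main cyclin of mitotic entry, had 2187 and 1818 reads (-0.42, -0.51 to -0.33) and was the lowest of the 5. CCNB2 (-0.06) and the phosphatase CDC25C (-0.16, 219 and 217 reads) had intervals that included no difference.

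Mitotic kinases and checkpoint genes were mostly lower. Of 6, 4 had intervals below no difference and 2 above it, with a median of -0.25. AURKA, the spindle pole kinase, was the lowest with 804 reads in the control and 678 in the Akt1/2 DKO library (-0.39, -0.54 to -0.25). BUB1B, a spindle checkpoint component, had 2026 and 1802 reads (-0.32), PLK1, the polo kinase of mitotic entry and exit, had 1652 and 1477 (-0.31) and BUB1, a checkpoint kinase, had 1006 and 974 (-0.20). AURKB, the kinase of the chromosomal passenger complex, went the other way with 644 and 903 reads (0.34, 0.19 to 0.49), as did the checkpoint kinase TTK with 332 and 447 (0.28, 0.07 to 0.49). The Aurora kinases therefore differed in opposite directions.

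The genes that trigger anaphase also held opposite values. CDC20, the activator of the anaphase promoting complex, had 2435 reads in the control and 1974 in the Akt1/2 DKO library, 1.37-fold lower (1.29 to 1.45), and UBE2C, the E2 enzyme of that complex, had 1257 and 1172 (-0.25, -0.37 to -0.13). PTTG1, securin, which the complex destroys to free separase, had 901 and 1486 reads, 1.49-fold higher (1.37 to 1.62), the highest of the G2/M genes.

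CENPF held the lowest value of the 54. CENPF (chr1:214603195-214664588), a large kinetochore and nuclear matrix protein that accumulates in G2, had 2560 control reads against 1543 in the Akt1/2 DKO library, 1.84-fold lower (1.73 to 1.96). The other members of its role were NDC80 of the outer kinetochore with 664 and 632 reads (-0.22, -0.38 to -0.06), the kinetochore motor CENPE with 203 and 213 (-0.08, -0.36 to 0.21) and BIRC5, survivin of the passenger complex, with 1480 and 1745 (0.09, -0.01 to 0.19). Only CENPF and NDC80 of these 4 had intervals that excluded no difference.

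Spindle motors and assembly factors had the smallest median absolute log2 fold change of the roles, 0.06. KIF11, the motor that separates the poles, had 1096 reads in the control and 1412 in the Akt1/2 DKO library (0.22, 0.10 to 0.33), and KIF20A, a motor of cytokinesis, had 1171 and 1097 (-0.24, -0.36 to -0.12). TPX2, NUSAP1 and KIF23 lay between -0.06 and 0.00, with signs that turned with the scaling for TPX2 and KIF23, and their intervals included no difference. MKI67, the proliferation marker Ki-67 that coats mitotic chromosomes, had 5940 and 8674 reads, 1.32-fold higher (1.27 to 1.36). TOP2A, which disentangles sister chromatids, had 4089 and 4074 (-0.15, -0.22 to -0.09). The widely used proliferation markers MKI67, PCNA and TOP2A thus did not share a direction.

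Levels per length, as the FPKM values that the authors deposited, spanned a wide range. PCNA was the most abundant member in both libraries with 314 FPKM in the control and 422 in the Akt1/2 DKO library, followed by MCM7 with 276 and 330. Of the G2/M genes UBE2C was the highest in the control (148 FPKM, and 130 in the Akt1/2 DKO library) and PTTG1 in the Akt1/2 DKO library (181, and 118 in the control). CENPE was the lowest of all members in both, with 5.24 and 2.54 FPKM. E2F2, the member with the largest difference in scaled reads, was at 15.9 and 31.5 FPKM, and CENPF at 26.2 and 15.7.

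**Figure D2:**
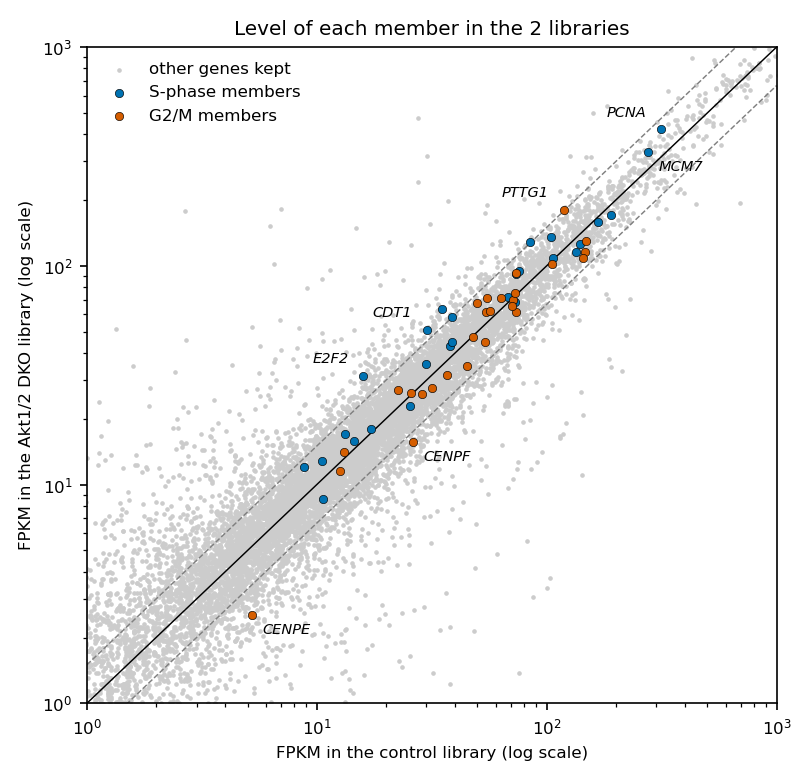
FPKM of each gene in the control library (horizontal) and the Akt1/2 DKO library (vertical), on log axes cropped to the range around the members, with members coloured by class over all other genes kept in grey. The solid line is equality and the dashed lines 1.5-fold: 8 members lie past 1.5-fold on this scale, with CENPE (5.24 and 2.54) the farthest from equality, and PCNA (314 and 422) is the most abundant.

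The direction of S-phase members was set beside their promoters. The 15 S-phase members with an E2F motif had a median log2 fold change of 0.23, with 13 above no difference, and the 8 without it a median of 0.03, with 4 above. The 14 G2/M members with a CHR motif had a median of -0.16, with 3 above no difference, and the 7 without it a median of -0.05, with 3 above. The contrast among S-phase members depended on the letters searched: for the E2F motif without its first T, 14 of 19 members with it (median 0.21) and 3 of 4 without it (median 0.09) lay above no difference. The CCAAT box, which is common to both classes, split the S-phase members in a similar way, with 12 of 14 above no difference with it (median 0.21) and 5 of 9 without it (median 0.03). 

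Other replication genes, which are not among the 54, gave values close to those of the S-phase members. Over 38 other replication genes the median log2 fold change was 0.21, with 27 above no difference. Intervals excluded it for 20 on the higher and 8 on the lower side, beside 30.5% and 33.4% of the 8746 genes with at least 323 reads. Only GMNN and UNG passed 1.5-fold (5.26%, beside 18.1% of those 8746 genes). GMNN, geminin, the inhibitor of CDT1, had 484 and 1106 reads, 2.06-fold higher (1.85 to 2.30). UNG, a uracil glycosylase that acts at forks, had 2045 and 3499, 1.54-fold higher (1.46 to 1.63). CDT1 and its inhibitor GMNN were thus both higher in the Akt1/2 DKO library.

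Other mitosis genes lay evenly about no difference, with a median slightly above that of the G2/M members (-0.06). Over 56 of them, which had 86 reads or more, the median was 0.01, with 28 above and 28 below no difference. Intervals excluded it for 18 on the higher and 13 on the lower side, beside the same 30.5% and 33.4% of the 8746 genes. Of the 56, 4 passed 1.5-fold (7.14%, beside the same 18.1%), all of them kinetochore or spindle genes. CENPH (452 and 808 reads, 1.61-fold) and SPC25 (98 and 170, 1.56-fold) of the kinetochore were higher. CENPA, the centromeric histone, with 225 and 150 reads was 1.66-fold lower (1.35 to 2.06), and KIF15, a spindle motor encoded on chromosome 3, with 697 and 467 was 1.65-fold lower (1.47 to 1.86). The median of other mitosis genes was lower than that of other replication genes by a log2 value of -0.20, with the mitosis genes evenly about no difference.

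**Figure D3:**
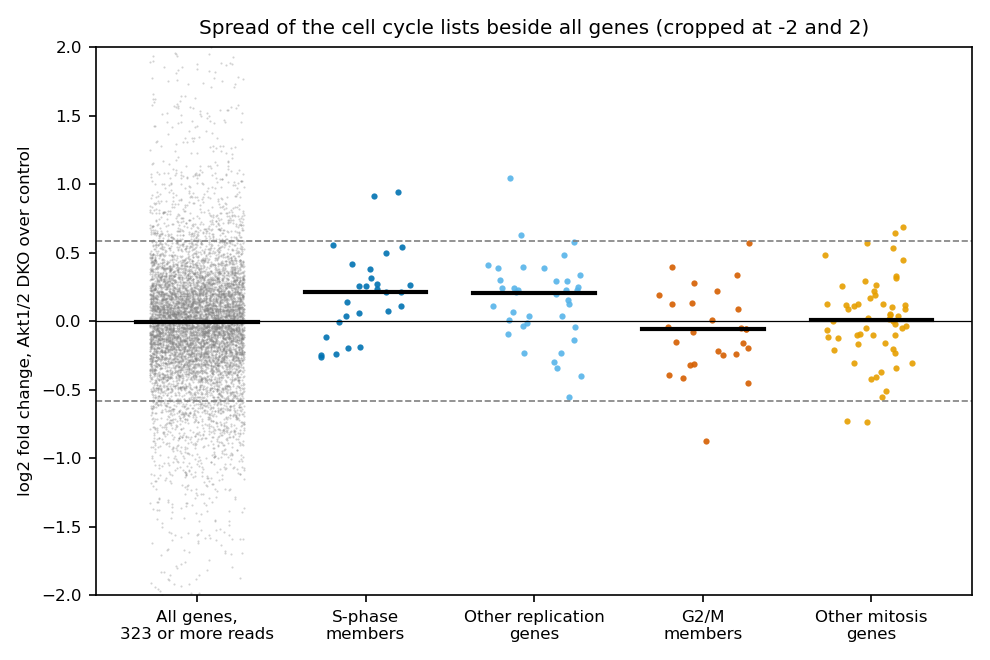
Log2 fold change (vertical axis, cropped at -2 and 2) of genes with at least 323 reads, of the member classes and of the other replication and mitosis genes; each point is a gene, thick bars are medians and dashed lines are 1.5-fold. Medians of replication lists are 0.21 and 0.21, and those of mitosis lists -0.06 and 0.01.

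The regulators upstream of both waves were listed in full. Of 15 pocket protein, E2F partner and MuvB genes, which had 75 reads or more, 4 passed 1.5-fold. That share lay below the 30.9% of all genes kept and above the 18.1% of genes with at least 323 reads. E2F7, an atypical repressor like E2F8, was 1.56-fold higher (394 and 683 reads), and RB1 was 1.56-fold higher (366 and 635). RBL2, the pocket protein p130 of DREAM, was 1.87-fold lower (1372 and 812 reads), and TFDP2, a dimer partner of E2F encoded on chromosome 3, was 2.35-fold lower (830 and 391). The pocket proteins RB1 and RBL2 therefore lay on opposite sides. Of 12 G1 cyclin, CDK and CDK inhibitor genes kept from 13 listed, 6 passed the limit (50%, beside the same 18.1% and 30.9%). Those with at least 100 reads were CCND1 (1.52-fold higher), CDK6 (7 control reads against 406, 52.3-fold higher, 25.2 to 131), CDKN1B (1.53-fold higher) and CDKN1A (1.55-fold lower). The paper reported no significant change by quantitative PCR, data not shown, in FOXO targets that included p21 (CDKN1A) and p27 (CDKN1B).

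Some counts are less certain than their intervals. Exons of 13 members overlap those of another counted gene, and whether reads were counted by strand is not given in the sources used here: CCNE2, MCM2, MCM7, GINS2, RFC4, FEN1, TYMS, FOXM1, CCNA2, CDC25C, PLK1, BUB1B and KIF20A. BUB1B shares exons with the readthrough gene BUB1B-PAK6 on its own strand, and FEN1 shares them with FADS2. E2F2, CDT1 and CENPF are not among these. The share of reads exchanged with such neighbours was not tested.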

How the data were processed

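RNA sequencing of 1 Akt1/2 DKO and 1 control library was compared. The authors deposited estimated counts per gene without normalization (also called expected counts, not all whole) and FPKM values of the same libraries. The submitters' processing notes name fastp 0.20.0, TopHat, Cufflinks, edgeR and the build GRCh38.p10, with no role or order; the annotation and the counting step are not given in the sources used here. The authors' comparison columns (fold changes, p-values and FDR) and their summary files were not used, and 0 columns belonged to other samples.

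Each estimate was rounded to a whole number. The 13318 of 19607 genes that had 10 or more reads over both libraries were scaled with TMM factors (edgeR 4.0.16 in R 4.3.3). Exact Clopper-Pearson 95% intervals were conditioned on the summed reads (scipy 1.17.1). Whether PCR duplicates were removed is not given in the sources used here. Intervals cover counting error only, and would be too narrow if duplicates were counted. The procedure was tested on simulated counts. Gene positions and exon overlaps came from GENCODE 29 (19571 identifiers found), and promoters from RefSeq GRCh38.p14, in which 10 members had no entry: AURKA, BIRC5, CCNE2, E2F8, FOXM1, MCM4, MCM5, TPX2, TTK and UBE2C.

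The members and lists were chosen with earlier results of these data known. Named in full are AKT1, AKT2, members past 1.5-fold, and the highest and lowest member of each role; other list genes are named if past 1.5-fold with at least 100 reads. Alternatives were total counts, DESeq2 1.42.0 size factors, upper quartile, FPKM, other read minimums, a 2-fold limit and counting intervals. Further alternatives were omission of chromosome 3 members and omission of the G2/M members FOXM1, MYBL2, MKI67, TOP2A and CCNA2. Scalings of the other lists were added after seeing the data.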

Additional observations from a re-analysis of the deposited data

How the results depend on the processing

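No paired analysis was possible because each genotype is 1 library, and no replicate could be left out. The count of members past 1.5-fold rests on values near the limit. It was 3 with TMM, DESeq2 size factors and all read minimums, 6 with total counts and with upper quartile scaling (E2F1, CDC6 and PTTG1 added; S-phase 4, G2/M 2), and 8 with FPKM (also MCM5 and CENPE; S-phase 5, G2/M 3). Over genes with at least 323 reads the share past 1.5-fold was then 18.1%, 18.1% and 19.3%. At 2-fold it was 0 in both classes, beside 7.33% of those genes. Counting intervals alone marked 40 members (S-phase 21, G2/M 19), beside 63.9%. The G2/M share of member signal was 43.7% in the control and 40.1% in the Akt1/2 DKO library by FPKM, and 34.8% and 29.9% of reads without FOXM1, MYBL2, MKI67, TOP2A and CCNA2. By FPKM 5 other replication genes and 7 other mitosis genes passed 1.5-fold, beside the same 19.3%, and the log2 fold change of AKT1 was -2.66. The causes were not tested. The difference of class medians was -0.27 under every scaling and read minimum, which cannot change it because all members were kept. It was -0.31 by FPKM, -0.29 without chromosome 3 members and -0.33 without FOXM1, MYBL2, MKI67, TOP2A and CCNA2. The median of G2/M members lay between -0.12 and -0.01 and that of S-phase members between 0.21 and 0.27. FPKM turned the sign of 3 members (MCM10, RRM1, KIF23), upper quartile of 3 (RRM1, MYBL2, KIF23), total counts of 1 (RRM1) and DESeq2 of 1 (TPX2); S-phase members above no difference numbered 20 or 21, and G2/M members 9 to 12.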

Other observations

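CENPE differed between units. Control and Akt1/2 DKO reads were 203 and 213, with a log2 fold change of -0.08, while the deposited FPKM were 5.24 and 2.54, with a log2 fold change of -1.04. The length that turns the reads into the FPKM was 3885 bases in the control library and 7824 bases in the Akt1/2 DKO library, and the 3 coding transcripts of CENPE in GENCODE 29 are 8241 to 8612 bases long. Among the other members the gap between the log2 fold changes of FPKM and of reads, centred on its median, was at most 0.27 in size (MCM10). Of 8742 genes, 69 (0.789%) had a gap past 1.5-fold, and CENPE was the 1 member among them. CENPE was chosen here after its values were seen, and the cause of the gap was not tested.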
